A study of Homo sapiens with 6 samples.

Results

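The 5 mature human miRNAs described here are hsa-miR-197-3p, hsa-miR-574-5p, hsa-miR-941, hsa-miR-128-3p and hsa-miR-3158-3p, written without the species prefix from here on. They share a genomic setting, because each has at least 1 hairpin inside a protein-coding gene and on that gene's strand. They were picked from 2588 entries because their share of miRNA reads was higher in every siPRDX3 library than in any siCTL library. That rule was met by 10 of the 80 entries with enough reads to be tested (12.5%), and by 14 of the 222 entries with at least 15 reads (6.31%). The remaining 5 of these 10, namely miR-1260a, miR-1260b, miR-4516, miR-7-5p and miR-99a-5p, were set aside as tRNA-like, ribosomal or otherwise distinct entries. Since the group difference chose the 5 miRNAs, it is given below as a description and carries no p-value.

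The libraries hold small RNA of exosomes from HCT116, an established human colorectal carcinoma line. The siCTL group (n = 3 libraries) received a control siRNA and the siPRDX3 group (n = 3) an siRNA against PRDX3, a mitochondrial peroxiredoxin, both by microporation; cells were kept for 40 h and exosomes were collected over 24 h in serum depleted of nanoparticles. Whether libraries of 1 group stem from separate cultures is not stated in the labels, and the spread between them may be technical. The series' design text also has a sentence on another siRNA and on endothelial cells (HUVECs). It conflicts with the sample titles and with the cell line given for each sample, which were followed here. PRDX3 mRNA is not measured in a miRNA library, so the knockdown could not be checked.

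Many animal miRNA hairpins sit in introns or, less often, in exons of protein-coding genes. The nuclear enzyme Drosha cuts such a hairpin out of the host's transcript and Dicer trims it to a duplex, from which 1 arm is usually kept in an Argonaute protein. Target recognition rests mainly on the seed, bases 2 to 8 of the mature miRNA. Host and miRNA can be made from the same transcript, but some hairpins in genes have promoters of their own, and exosomal levels add a step of release. Host mRNA was not measured in these libraries. In bulk exosomal RNA, fewer vesicles of a kind and less of a miRNA per vesicle cannot be told apart.

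The mature sequences (RefSeq, GRCh38.p14, 5′ to 3′) are shown first because they decide which reads could be assigned to each entry and which targets a miRNA can pair with. Capitals mark the seed.
miR-197-3p: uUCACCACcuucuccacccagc
miR-574-5p: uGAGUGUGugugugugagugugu
miR-941: cACCCGGCugugugcacaugugc
miR-128-3p: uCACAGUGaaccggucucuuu
miR-3158-3p: aAGGGCUUccucucugcaggac
The 5 seeds all differ. Among the 2370 mature sequences of the RefSeq table, the seeds of miR-197-3p, miR-574-5p, miR-941 and miR-3158-3p occurred in no other miRNA. The seed of miR-128-3p was shared with miR-3681-3p and miR-216a-3p, which had 0 reads in all 6 libraries. No other mature sequence of the table lay within 6 changes, since the smallest edit distance was 7 for miR-197-3p, miR-574-5p, miR-128-3p and miR-3158-3p and 8 for miR-941. miR-574-5p stood out by composition: 81.8% of its neighbouring base pairs were GU or UG, against a median of 14.3% over the table, and 0 of the 2370 sequences had a higher value. Such a repeat can also match reads from other GU-rich places in the genome, and how the authors treated reads with several matches is not given in the sources used here. GC content ran from 47.6% in miR-128-3p to 65.2% in miR-941, within the range of 31.8% to 88.9% (median 52.2%) over the 69 tested entries with a sequence. The letters GGAG, described as a motif of miRNAs sorted into exosomes, were in 0 of the 5 mature strands, in 13 of the 69 tested entries (18.8%) and in 15.7% of the table; the search covered the mature strand alone, and the missing match says only that these letters are not in these sequences.

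Positions of the hairpins (GENCODE v29, GRCh38) placed 4 of the 5 miRNAs in introns and 1 in an exon. The hairpin of miR-574-5p lies at chr4:38868032-38868127 on the plus strand, in intron 1 of FAM114A1, ahead of the coding part. That intron is only 563 bases long, and the hairpin starts 197 bases after the upstream exon. miR-941 comes from 5 hairpins between chr20:63919449-63919520 and chr20:63919868-63919939 on the plus strand, all in intron 1 of DNAJC5. This gene encodes cysteine string protein, a co-chaperone of secretory vesicles. miR-128-3p, best known from neurons, has a hairpin at chr2:135665397-135665478 in intron 18 of R3HDM1 and another at chr3:35744476-35744559 in intron 18 of ARPP21, which encodes a phosphoprotein abundant in brain. miR-3158-3p has hairpins on both strands of chr10:101601417-101601497 in intron 4 of DPCD, 80 bases from the exon before it. The plus-strand hairpin has the same orientation as DPCD and the minus-strand hairpin the opposite one. miR-197-3p differed from the others in position. Its hairpin at chr1:109598893-109598967 (plus strand) lies in exon 9 of the annotated GNAI3 transcript, after the coding part and so in the 3′ untranslated region. GNAI3 encodes an inhibitory G protein alpha subunit.

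The hairpin sequences (RefSeq, GRCh38.p14) are shown for the intronic members, because copies of 3 of them yield the same mature strand and cannot be separated in the deposited tables. Capitals mark the mature miRNA.
MIR574: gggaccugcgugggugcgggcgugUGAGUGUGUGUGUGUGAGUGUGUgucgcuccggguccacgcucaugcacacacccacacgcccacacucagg
MIR941-3: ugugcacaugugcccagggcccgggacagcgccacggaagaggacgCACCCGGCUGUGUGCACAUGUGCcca
MIR128-1: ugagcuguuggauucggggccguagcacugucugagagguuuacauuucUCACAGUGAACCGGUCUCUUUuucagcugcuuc
MIR128-2: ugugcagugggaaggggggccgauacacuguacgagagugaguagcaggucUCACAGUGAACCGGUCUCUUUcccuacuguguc
MIR3158-1: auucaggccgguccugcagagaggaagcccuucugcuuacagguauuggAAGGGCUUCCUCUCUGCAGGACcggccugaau
MIR3158-2: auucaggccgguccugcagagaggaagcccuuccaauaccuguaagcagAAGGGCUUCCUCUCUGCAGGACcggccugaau
The 2 hairpins of miR-3158 are reverse complements of each other and share their first 33 and last 33 bases, so they differ only in the loop. The hairpins of MIR941-3, MIR941-4 and MIR941-5 are identical over 72 bases, and MIR941-1 differs from them by 1 base. MIR128-1 and MIR128-2 differ by an edit distance of 22 outside a shared 3′ strand. Reads of miR-941, miR-128-3p and miR-3158-3p therefore could not be assigned to 1 hairpin or, for miR-128-3p, to 1 host gene.

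Library depth set how firmly low values can be read. Recovered miRNA reads numbered 40146 to 124735 in siCTL and 70678 to 230946 in siPRDX3. Where no read was found, the share could still be as high as 0.00747% in siCTL 1, the smallest library, or 0.00371% in siCTL 2 (3 reads of the total). These limits and the intervals below cover counting error only, since reads copied by PCR without molecular tags are not separate molecules. A single entry, miR-4451, took 11.8% to 76.9% of a library and so moves every other share. siCTL 1 lacked 30 of the 80 tested entries and siCTL 2 lacked 23, whereas siCTL 3 lacked 0 and a siPRDX3 library 1 to 8. Colon epithelial markers fixed for the check (10 of 10 with reads) made up 0.107% to 2.65% of siCTL reads and 0.201% to 1.96% of siPRDX3 reads, with siCTL 1 and siCTL 2 lowest. Erythrocyte markers (3 of 4 with reads, miR-144-3p at 0) made up 4.15% to 5.58% in siCTL and 1.09% to 3.54% in siPRDX3. The neuronal list, which bears on miR-128-3p, reached at most 0.00561% in siCTL and 0.0156% in siPRDX3, from 1 of 4 markers, with miR-124-3p, miR-129-5p and miR-138-5p at 0. Hepatocyte miR-122-5p made up 0.0593% to 5.35% in siCTL and 2.44% to 9.63% in siPRDX3. Leukocyte and platelet markers (2 of 5 with reads; miR-142-3p, miR-223-3p and miR-150-5p at 0) were at 0% in siCTL and reached 0.406% in siPRDX3 3, against 0.0048% and 0% in siPRDX3 1 and 2. Endothelial markers (1 of 2 with reads, miR-126-5p at 0) reached 0.218% in siPRDX3 3 and at most 0.0040% elsewhere. Fibroblast and smooth muscle markers stayed at or below 0.0071%, and striated muscle markers reached 0.154% in siCTL 1. Their part in the results below was not tested.

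Libraries siCTL 1, 2 and 3 gave 0, 19 and 10 reads of miR-574-5p, and siPRDX3 1, 2 and 3 gave 698, 380 and 151. As shares these were 0%, 0.0235% and 0.00802% against 0.302%, 0.393% and 0.214%. The groups lay far apart, with the lowest siPRDX3 share 9.1 times the highest siCTL share. The siPRDX3 mean of 0.303% ± 0.0897 was 28.9 times the siCTL mean of 0.0105% ± 0.0119 (± SD, n = 3 each). It was also the steadiest of the 5 in siPRDX3, where the highest share was 1.84 times the lowest. At its lowest siPRDX3 share, siCTL 1 would have held 85.8 reads and siCTL 2 would have held 172.9.

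For miR-197-3p the siCTL libraries gave 0, 0 and 11 reads and the siPRDX3 libraries 258, 44 and 165. Its shares were 0%, 0% and 0.00882% against 0.112%, 0.0455% and 0.233%. Only siCTL 3 held it among the controls, and siPRDX3 2, the lowest of its group, still had 5.16 times the share of siCTL 3. Its siPRDX3 mean was 0.130% ± 0.0953 and its siCTL mean 0.0029% ± 0.0051 (± SD, n = 3 each). Within siPRDX3 the highest share was 5.13 times the lowest.

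miR-941, a miRNA found in humans and not in other primates, was counted 0, 0 and 4 times in the siCTL libraries and 64, 43 and 10 times in the siPRDX3 libraries. Shares were 0%, 0% and 0.00321% against 0.0277%, 0.0445% and 0.0141%. The ratio of the lowest siPRDX3 share to the highest siCTL share was 4.41, but it rests on 10 reads in siPRDX3 3 and 4 in siCTL 3. The 95% Clopper-Pearson intervals of these libraries overlap (0.00679% to 0.0260% and 0.000874% to 0.00821%). At its lowest siPRDX3 share, siCTL 1 would have held 5.68 reads and siCTL 2 would have held 11.5, so the 0 in siCTL 1 is a thin observation.

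miR-3158-3p was the most abundant of the 5, ranking between 17 and 32 among the entries of the siPRDX3 libraries. Its reads numbered 2, 0 and 430 in the siCTL libraries and 1155, 868 and 302 in the siPRDX3 libraries. Shares were 0.00498%, 0% and 0.345% against 0.5001%, 0.898% and 0.427%. siCTL 3 resembled the siPRDX3 libraries far more than the other siCTL libraries, and siPRDX3 3 exceeded it by a ratio of only 1.24. The siPRDX3 mean was 0.608% ± 0.253 and the siCTL mean 0.117% ± 0.198 (± SD, n = 3 each).

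miR-128-3p had the narrowest separation. The siCTL libraries gave 1, 0 and 17 of its reads and the siPRDX3 libraries 44, 15 and 75, which are shares of 0.00249%, 0% and 0.0136% against 0.0191%, 0.0155% and 0.106%. siPRDX3 2 exceeded siCTL 3 by a ratio of 1.14, and their Clopper-Pearson intervals overlap (0.00869% to 0.0256% and 0.00794% to 0.0218%). The siPRDX3 mean of 0.0469% ± 0.0513 (SD, n = 3) was carried by siPRDX3 3, and the siCTL mean was 0.0054% ± 0.0073 (SD, n = 3). In siPRDX3 3 the leukocyte, endothelial, fibroblast and neuronal lists were also at their highest (0.406%, 0.218%, 0.0071% and 0.0156%). The part of those markers in the miR-128-3p mean was not tested. Its highest siPRDX3 share was 6.84 times its lowest.

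**Figure D1:**
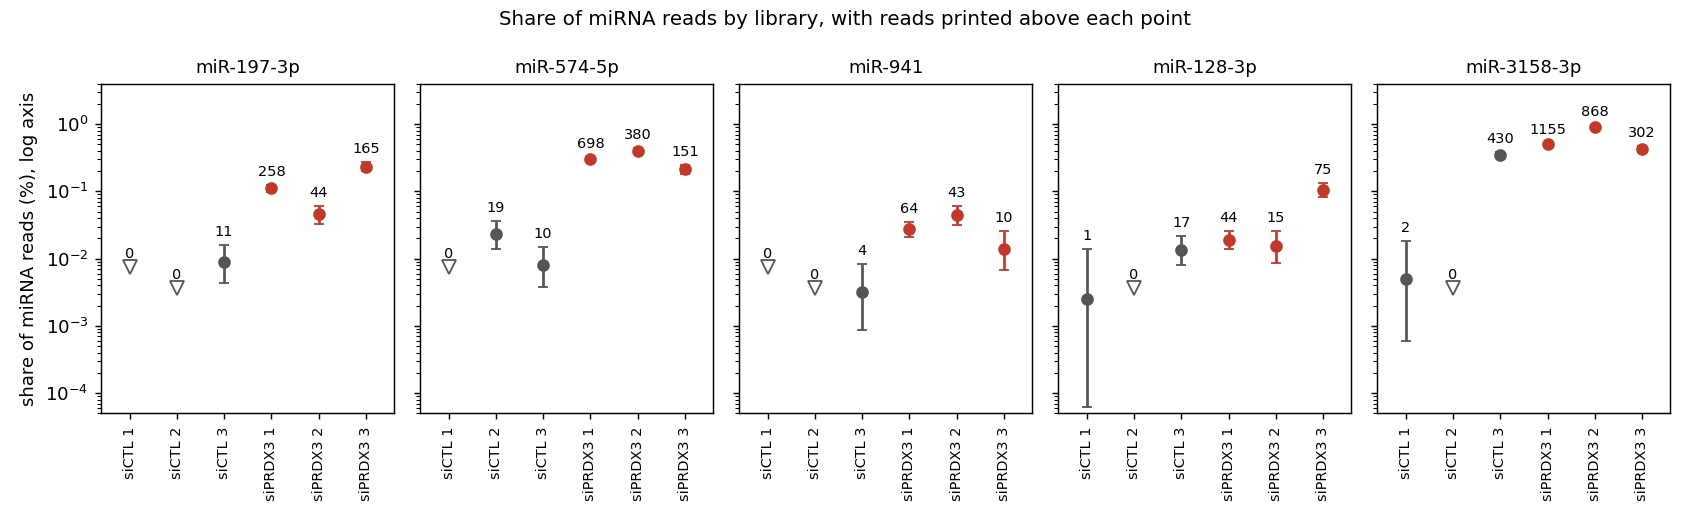
Share of miRNA reads (%, log axis) of each of the 5 miRNAs in the 6 libraries, siCTL in grey and siPRDX3 in red, with 95% Clopper-Pearson intervals for counting error and the read count above each point. Open triangles stand for 0 reads and are drawn at the share that 3 reads would make; siCTL 3 lies next to the siPRDX3 libraries for miR-128-3p and miR-3158-3p.

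Together the 5 miRNAs made up 0.00747%, 0.0235% and 0.378% of the siCTL libraries 1, 2 and 3 and 0.961%, 1.40% and 0.995% of the siPRDX3 libraries 1, 2 and 3. siCTL 3 stood between the other controls and the siPRDX3 group. In means this was 0.136% ± 0.210 against 1.12% ± 0.242 (SD, n = 3 each), a log2 ratio of 3.03. Without siCTL 3 the log2 ratio was 6.17, and with siCTL 3 as the only control it was 1.56. miR-3158-3p made up 91.1% of this sum in siCTL 3 and 52.1%, 64.3% and 43.0% in siPRDX3 1, 2 and 3, but 0% in siCTL 2, where all 19 reads were miR-574-5p. All 5 had reads in siCTL 3 and in each siPRDX3 library, whereas siCTL 1 held 2 of them and siCTL 2 held 1.

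The order of the 5 varied within siPRDX3. miR-3158-3p led in all 3 libraries. miR-574-5p came next in siPRDX3 1 and siPRDX3 2, but in siPRDX3 3 miR-197-3p (165 reads) and miR-574-5p (151 reads) were within counting error of each other, with intervals of 0.199% to 0.272% and 0.181% to 0.251%. miR-128-3p was the lowest in siPRDX3 1 and siPRDX3 2, and miR-941 was the lowest in siPRDX3 3.

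The separation depended on the scale for 2 of the 5. The authors' deposited scale applies a further scaling between libraries. With the log2 undone, its library sums were 1.01e+06, 1.62e+06 and 9.95e+05 for siCTL 1, 2 and 3. Those of siPRDX3 1, 2 and 3 were all lower, at 6.87e+05, 6.85e+05 and 4.75e+05. An equal share thus stands for a higher deposited value in siCTL, and the reason for these sums was not tested. By deposited value, 6 of the 80 tested entries (7.5%) lay higher in every siPRDX3 library than in any siCTL library. Among these were 3 of the 5. On that log2 scale miR-3158-3p stood at 5.675, 0 and 11.744 in siCTL and at 11.747, 12.587 and 10.987 in siPRDX3, so siCTL 3 lay above siPRDX3 3 and the groups overlapped. miR-128-3p stood at 4.703, 0 and 7.094 against 7.043, 6.745 and 8.979, and siCTL 3 lay above both siPRDX3 1 and siPRDX3 2. miR-197-3p, miR-574-5p and miR-941 kept apart, with ratios of the lowest siPRDX3 value to the highest siCTL value of 3.55, 2.67 and 2.11. With miR-4451 left out of the library sum, all 5 were apart by share, at ratios of 8.25 for miR-197-3p, 3.38 for miR-574-5p, 6.14 for miR-941, 1.33 for miR-128-3p and 1.38 for miR-3158-3p. The value of miR-574-5p moved most because its highest control was siCTL 2, the library with 76.9% miR-4451. For the other 4 the highest control was siCTL 3.

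**Figure D2:**
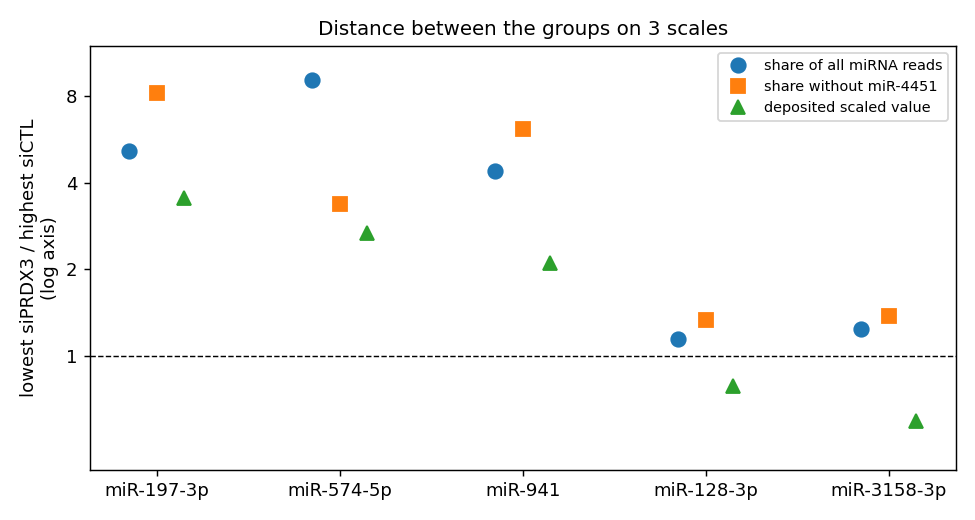
Ratio of the lowest siPRDX3 library to the highest siCTL library (log axis) for each miRNA, as a share of all miRNA reads, as a share without miR-4451, and on the authors' deposited scale. Points above the dashed line at 1 mean that the groups do not overlap; miR-128-3p (0.784) and miR-3158-3p (0.592) fall below it on the deposited scale.

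A limma fit to the deposited log2 values of all 80 tested entries gave the size of each difference against the spread of the libraries. Differences are siPRDX3 minus siCTL on the log2(value + 1) scale; with libraries at 0 they depend on the added 1 and are no bound. miR-197-3p differed by 7.17 (SE 2.44), from a mean level of 2.16 ± 3.74 in siCTL to 9.33 ± 0.94 (± SD, n = 3) in siPRDX3. The differences were 5.97 (SE 2.92) for miR-3158-3p, 5.83 (SE 2.44) for miR-574-5p, 5.63 (SE 2.53) for miR-941 and 3.66 (SE 2.43) for miR-128-3p. The median over all tested entries was 1.72, and it was 2.57 when values were scaled to library totals. Across all 80 entries, limma called 0 at an adjusted p of 0.05 (0%) and 6 at an unadjusted p under 0.05, and limma-voom called 1, miR-1260b, which is not among the 5 (13 at an unadjusted p under 0.05).

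These sizes rested on which controls were kept. Without siCTL 3, a library in which all 5 had reads, the differences grew to 9.33 for miR-197-3p, 8.94 for miR-3158-3p, 7.31 for miR-941, 6.52 for miR-574-5p and 5.24 for miR-128-3p, and limma called 20 of the 80 entries. Without siCTL 1 and siCTL 2, a setting chosen after seeing the data, the differences were 4.47 (SE 1.84) for miR-574-5p, 2.86 (SE 2.11) for miR-197-3p, 2.27 (SE 2.61) for miR-941, 0.50 (SE 2.43) for miR-128-3p and 0.03 (SE 1.44) for miR-3158-3p. The lone control is there assumed to vary like the siPRDX3 libraries. Against siCTL 3 alone, miR-3158-3p, miR-128-3p and miR-941 thus differed by less than their standard errors, while the median over all tested entries was −1.15.

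**Figure D3:**
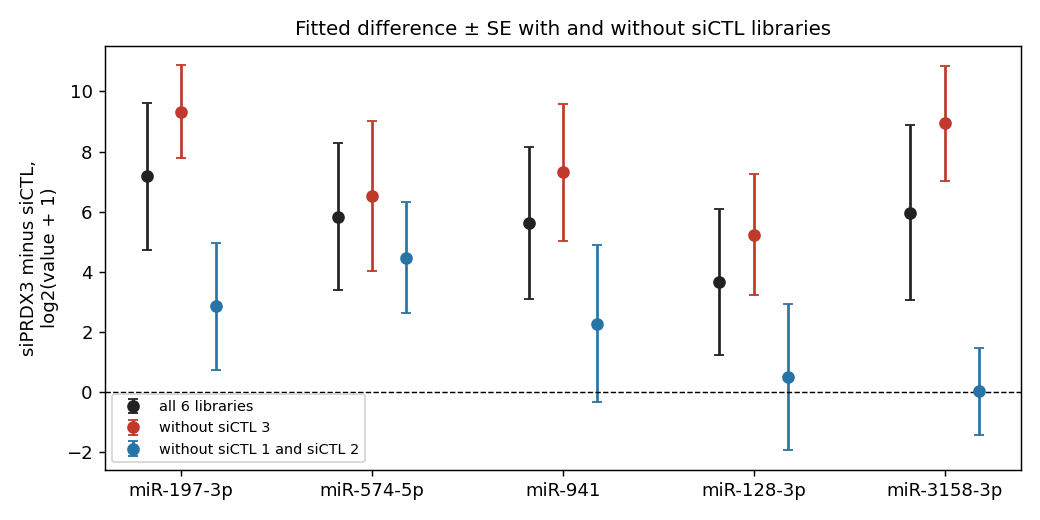
Fitted difference (siPRDX3 minus siCTL, log2(value + 1), ± SE) of each miRNA with all 6 libraries (black), without siCTL 3 (red) and without siCTL 1 and siCTL 2 (blue). miR-574-5p stays at 4.47 in the last setting, whereas miR-3158-3p falls from 5.97 to 0.03.

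The opposite arms of the same hairpins did not enter the choice of the 5. Reads of miR-3158-5p numbered 0, 0 and 5 in the siCTL libraries and 24, 13 and 3 in the siPRDX3 libraries. It made up 1.15% of the reads of both arms in siCTL 3 (95% Clopper-Pearson interval 0.374% to 2.66%) and 2.04% (1.31% to 3.01%), 1.48% (0.788% to 2.51%) and 0.984% (0.203% to 2.85%) in siPRDX3 1, 2 and 3. These intervals all overlap, which is no test, and a difference in arm use between these libraries was not tested. miR-574-3p had reads in siPRDX3 3 alone, 14 against 151 of miR-574-5p, or 8.48% of both arms (4.72% to 13.8%). siPRDX3 1 and siPRDX3 2 had 0 of 698 and 0 of 380 reads of both arms, with upper interval limits of 0.527% and 0.966%. The part of miR-574 reads assigned to the 3p arm therefore differed between libraries of 1 group beyond counting error. Arm use, PCR copies and GU-rich reads from elsewhere cannot be told apart in this value. The entries miR-197-5p, miR-128-1-5p and miR-128-2-5p were not seen among 644115 reads, a limit of 0.000466% (3 reads).

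Position in a protein-coding gene was common among all tested entries and was compared without regard to how they moved. Of the 80, 41 had a hairpin inside a protein-coding gene on its strand and 39 had none. By share, siPRDX3 lay above siCTL without overlap in 6 of the 41 (14.6%) and 4 of the 39 (10.3%), beside 12.5% over all tested entries, and the 5 were counted among the 6 by their choice. siCTL lay above without overlap in 2 of the 41 and 0 of the 39. On the deposited scale the balance turned for entries in genes, with siPRDX3 above in 3 of the 41 and siCTL above in 5. Elsewhere it did not turn, with siPRDX3 above in 3 of the 39 and siCTL above in 2. Over all 80 these numbers were 6 and 7. Fitted differences were above 0 for 22 of the 41 and 29 of the 39, with medians of 0.50 and 1.78. Leaving out the 5, 17 of 36 entries in genes lay above 0. A list of 61 textbook miRNAs within genes had 16 tested members, of which 10 lay above 0 with a median of 1.73, close to the 1.72 over all tested entries; this list holds 4 of the 5. With all 6 libraries the share of entries above 0 was thus lower in genes than elsewhere, a difference that was not tested. It did not hold without siCTL 1 and siCTL 2, where 10 of 41 in genes and 17 of all 80 lay above 0.

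**Figure D4:**
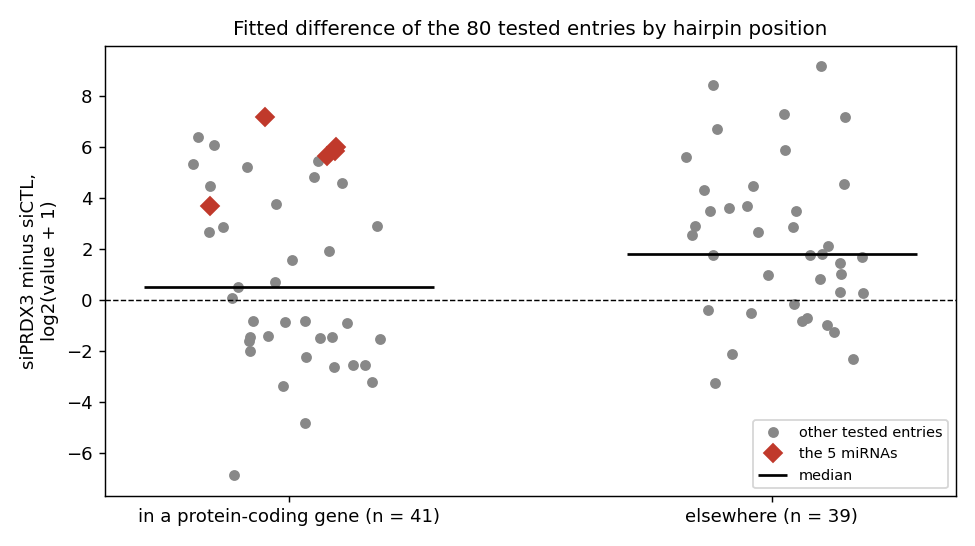
Fitted difference (siPRDX3 minus siCTL, log2(value + 1)) of the 80 tested entries, split into 41 with a hairpin in a protein-coding gene and 39 elsewhere; diamonds are the 5 miRNAs and bars the medians of 0.50 and 1.78. Entries in genes lie on both sides of 0, and the 5 are among the higher ones by their choice.

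Entries in genes near the limit of the choice showed how it was drawn. Just inside, miR-7-5p, with a hairpin in HNRNPK, had a lowest siPRDX3 share 1.11 times its highest siCTL share, which was again that of siCTL 3 (205 reads, against 1 each in siCTL 1 and siCTL 2). Just outside were let-7f-5p (0.930), miR-589-5p (0.590) and miR-423-5p (0.517), with a hairpin in HUWE1, FBXL18 and NSRP1. An entry in this class can also have hairpins outside its gene, so its reads need not come from that host. miR-589-5p gave 0, 2 and 54 reads against 59, 32 and 26, also with siCTL 3 close to siPRDX3. miR-128-3p at 1.14 and miR-3158-3p at 1.24 lay nearest to the limit among the 5.

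Across the 6 libraries the 5 profiles resembled one another to different degrees. Pearson's r of log2(RPM + 10), where RPM scales the reads of a library to a common total, ran from 0.58 for miR-574-5p with miR-128-3p to 0.92 for miR-197-3p with miR-128-3p. Among 217 other entries with at least 15 reads, those closest to the mean profile of the 5 were miR-1260b (r = 0.97), miR-4516 (0.96), miR-1260a (0.95), miR-7-5p (0.95) and miR-3158-5p (0.94). Taken singly, miR-197-3p and miR-941 were closest to miR-1260b (0.96 and 0.97), miR-574-5p to miR-99a-5p (0.91), miR-128-3p to miR-668-3p (0.97) and miR-3158-3p to miR-7-5p (0.98). These points share library depth and the shared denominator, and the 5 were chosen for a group difference, so the values describe likeness only.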

How the data were processed

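The authors deposited 1 table per library with a log2 value for each of 2588 mature miRNA entries. Bowtie2 and bedtools 2.25.0 are named, without roles, in the submitters' processing notes. For build, annotation, filters and scaling the entry is: not given in the sources used here. Deposited values were taken as log2(x + 1). In each library x is a whole multiple of what 1 read is worth, and 100% of values up to 100 reads were whole within 0.1 read. Shares are recovered reads over the library sum. Entries were tested where at least 3 libraries reached 113 RPM (10 reads in a library of median size) and at least 15 reads were found in all. limma 3.58.1 (R 4.3.3) with a mean-variance trend was fitted to the deposited log2 values without covariates, two-sided, with Benjamini-Hochberg adjustment at 0.05. The code was run on simulated data with a smaller spread than these libraries and without libraries dropping to 0. That run cannot show how the fit performs on values such as these.

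A hairpin counted as inside a gene where it lay within a protein-coding gene of GENCODE v29 on its strand; 685 of 686 entries with reads matched a hairpin. All 5 members matched a RefSeq sequence. The members and lists were chosen with earlier results of these data known. Apart from the 5, entries were named as their other arms, as the nearest to the limit of the choice, or as the closest profiles; the rest were named after their values were seen. Alternatives covered scaling, filter, pseudocount, model, the replicate number as a block and leaving out libraries.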

Additional observations from a re-analysis of the deposited data

How the results depend on the processing

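Fitted differences of the 5 miRNAs stayed above 0 in all 13 alternatives of the fit, with lowest values of 3.35 for miR-574-5p, 2.86 for miR-197-3p, 2.27 for miR-941, 0.50 for miR-128-3p and 0.03 for miR-3158-3p. Because the 5 were picked for higher siPRDX3 shares, this sign was largely fixed in advance and is no support. The number of entries called, 0 over all libraries, was 1 with limma-voom and 0 to 20 with a library left out; the 20 came without siCTL 3. The number with siPRDX3 above by share, 10, was 6 on the deposited scale and 10 to 38 with a library left out (38 without siCTL 3, 20 without siPRDX3 2). Leaving out a library can only keep or raise this number, so the direction of that shift was fixed by the rule. The log2 ratio of summed shares, 3.03, ran from 2.48 to 6.17 with 1 library left out (6.17 without siCTL 3), was 2.31 on the deposited scale and 1.56 without siCTL 1 and siCTL 2. Entries in genes with a difference above 0 numbered 22 of 41, against 10 of 16 in the textbook list, 75 of 130 among entries with at least 15 reads and 10 of 41 without siCTL 1 and siCTL 2. Over all 80 tested entries 51 lay above 0 with all 6 libraries and 17 without siCTL 1 and siCTL 2. The share in genes was thus below that over all entries in the first setting and slightly above it in the second. Beyond that rule, the cause of these shifts was not tested.

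Same-numbered libraries of the 2 groups deviated together at correlations of −0.24, 0.18 and 0.14, and siCTL 1 and siCTL 3 did not correlate best with their own number. Deviations from a mean of 3 libraries are bound to one another, so these values cannot decide whether the numbers pair the libraries. With the replicate block 0 entries were called, 7 at an unadjusted p under 0.05. Depth limits the low controls most: over all siCTL libraries miR-941 had 4 reads, miR-197-3p 11 and miR-128-3p 18.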

Other observations

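An entry in a gene that missed the filter for testing, miR-106b-3p, had the same direction. In siPRDX3 2 it stood at 103 RPM, below the 113 RPM asked for in at least 3 libraries. It was chosen after its values were seen. Its hairpin lies in MCM7, a subunit of the replicative helicase, and the siCTL libraries gave 1, 1 and 0 of its reads and the siPRDX3 libraries 177, 10 and 416. The lowest siPRDX3 share was 4.15 times the highest siCTL share, but this rests on 10 reads in siPRDX3 2 and 1 in siCTL 1. Within siPRDX3 the highest share was 56.9 times the lowest. The tested entries in the same host, miR-25-3p and miR-25-5p, overlapped between the groups. Their lowest siPRDX3 shares were 0.148 and 0.0993 times their highest siCTL shares. Among the 222 entries with at least 15 reads, 14 lay above in every siPRDX3 library (6.31%), 9 of 130 in genes and 5 of 92 elsewhere. Those in genes include the 5, which were chosen by this rule, and miR-3158-5p, the other arm of a miR-3158 hairpin.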
